A study of Homo sapiens with 16 samples.

Results

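Pattern recognition receptors and the genes of the inflammasome were followed through 5 conditions in OCI-AML3, an established human acute myeloid leukemia (AML) cell line described by the study as RARA-high. The set holds 38 genes, taken by their symbols from the 62700 genes counted: 10 Toll-like receptors (TLRs), 2 lipopolysaccharide coreceptors, the TIR adaptors and IRAK kinases, 6 NOD-like receptors, the DNA sensor AIM2, 4 C-type lectins with their adaptor CARD9, 3 inflammasome effectors, IL1B, IL18 and the antagonist IL1RN. All 38 were found in the data, and 29 of them, those averaging 10 or more normalized counts across the 16 libraries, were tested. RNA-seq libraries came from untreated cells (n = 4) and, after 3 h, from cells given ATRA (n = 3), AM80 (n = 3), ATRA together with the inhibitors GSK-LSD1 and MB3 (n = 3), or AM80 with the same inhibitors (n = 3). Both retinoids and GSK-LSD1 were used at 0.1 µM, and the dose of MB3 was 100 µM. ATRA, all-trans retinoic acid, activates all retinoic acid receptors. AM80 (tamibarotene) is a synthetic retinoid selective for RARA. GSK-LSD1 inhibits the histone demethylase LSD1, and MB3 inhibits the histone acetyltransferase GCN5. GSK-LSD1 and MB3 were never given in the absence of a retinoid in these libraries, so they were read only on top of a retinoid, and only as a pair.

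Toll-like receptors recognize microbial molecules at the cell surface or in endosomes and signal through the adaptors MYD88, TIRAP, TICAM1 and TICAM2 and the IRAK kinases to NF-κB. NOD-like receptors and AIM2 act in the cytosol, where some of them assemble inflammasomes: a sensor binds PYCARD (ASC), which recruits caspase-1. Caspase-1 then cleaves pro-interleukin-1β and pro-interleukin-18, and it cleaves gasdermin D, which forms pores in the plasma membrane. Monocytes and neutrophils carry much of this machinery, and several of its genes are transcribed more as myeloid cells mature. Transcript levels say nothing of cleavage or of secretion, which RNA-seq does not measure.

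Between 11963898 and 33789718 reads per library were assigned to genes, with a median of 17574037. The deepest libraries belonged to AM80 and the shallowest to untreated cells. Of 7 markers of a myeloid AML line, CD33, ANPEP, MPO, SPI1, CEBPA, LYZ and PTPRC, all were detected in every library, with a summed level of 31169 to 35156 normalized counts in untreated cells and 26456 to 29928 in the other groups. They did not move alike on the log2 scale. LYZ changed by -0.67 with ATRA and -0.48 with AM80, and by 0.70 and 0.52 on adding the inhibitors. CEBPA changed by 0.15 and 0.22, and then by -0.81 and -0.67. MPO and SPI1 were at -0.60 and -0.59 with the ATRA combination against untreated cells. CD33, ANPEP and PTPRC stayed within 1.5-fold in these comparisons. Among markers of other blood lineages, CD3E, CD3D, MS4A1, HBB and PPBP had at most 3 reads in any library, whereas NCAM1 was present at 2111 to 2994 normalized counts, and its part in the results was not tested. EPCAM, KRT8 and COL1A1 together reached at most 8.86 normalized counts. Libraries also differed in how counts followed the GC content of a transcript. Per 10 percentage points of GC, the deviation of a library from the gene means changed by 0.0488 to 0.186 log2 units in untreated cells and by 0.0571 to 0.152 with ATRA. It lay between -0.129 and 0.135 with AM80, where replicate 2 gave the low value, between -0.215 and -0.175 with the ATRA combination and between -0.0945 and -0.0318 with the AM80 combination. Calls of members that ended when this slope was removed are given below with both values. In bulk RNA, fewer cells of a type and less RNA per cell cannot be told apart. Nothing in the sample descriptions says that replicates were separate cultures, so p-values measure only the spread between these libraries.

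RefSeq promoter sequences (GRCh38.p14) were available for 27 of the 38 members. For 24 of these, a run of bases shortly after the start was found in a GENCODE 29 transcript of the gene. For TICAM1, NOD2 and NLRP3 it was not, and the matches given below for TICAM1 and NLRP3 lie before such starts. The TICAM1 window begins at position 4831713 and the annotated gene, on the minus strand, ends at 4831704. Its RefSeq start thus lies just outside the GENCODE gene, where the check fails although the start leads into the gene. TLR1, TLR7, TLR10, LY96, TIRAP, NLRP1, CLEC7A, CLEC4A, CASP1, IL18 and GSDMD had no entry. The 250 bases before the start are shown for 5 members, chosen with their values known because they stand for the main courses over the conditions: AIM2 and NLRP12 were higher after both retinoids, IL1B was higher once the inhibitors were present, TLR2 was lower after both retinoids, and NOD1 was lower once the inhibitors were present. GENCODE also gives AIM2, IL1B, NLRP12 and TLR2 transcripts that start farther upstream than the RefSeq start, so these windows lie at least partly within the annotated gene. Capitals mark every match to a searched motif on either strand. The motifs were the core retinoic acid receptor motif AGGTCA and its direct repeats spaced by 1, 2 or 5 bases, AP-1 (TGANTCA), NF-κB (GGANTTTCC), C/EBP (TTGCNNAA, which includes the palindrome TTGCGCAA) and PU.1 (GAGGAA).
AIM2 (chr1:159076767-159077016, minus strand): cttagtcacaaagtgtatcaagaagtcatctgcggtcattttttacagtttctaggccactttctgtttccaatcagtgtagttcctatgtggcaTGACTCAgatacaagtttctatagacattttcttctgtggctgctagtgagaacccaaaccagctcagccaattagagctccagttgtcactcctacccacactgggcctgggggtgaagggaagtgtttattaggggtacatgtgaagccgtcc
IL1B (chr2:112836780-112837029, minus strand): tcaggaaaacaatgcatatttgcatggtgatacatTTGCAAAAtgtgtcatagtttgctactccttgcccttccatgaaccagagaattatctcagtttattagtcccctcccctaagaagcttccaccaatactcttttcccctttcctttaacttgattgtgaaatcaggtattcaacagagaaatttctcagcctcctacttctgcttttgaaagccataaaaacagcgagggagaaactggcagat
NLRP12 (chr19:53824315-53824564, minus strand): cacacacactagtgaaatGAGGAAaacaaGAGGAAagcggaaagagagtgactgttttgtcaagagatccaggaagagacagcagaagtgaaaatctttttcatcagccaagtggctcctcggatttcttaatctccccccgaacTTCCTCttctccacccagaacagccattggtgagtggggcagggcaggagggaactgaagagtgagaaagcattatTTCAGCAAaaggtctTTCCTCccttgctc
TLR2 (chr4:153684030-153684279, plus strand): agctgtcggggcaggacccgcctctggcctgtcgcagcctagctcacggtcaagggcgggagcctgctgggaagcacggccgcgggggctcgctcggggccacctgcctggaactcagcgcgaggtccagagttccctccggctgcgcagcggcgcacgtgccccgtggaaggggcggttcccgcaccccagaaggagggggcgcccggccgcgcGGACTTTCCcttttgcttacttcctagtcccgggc
NOD1 (chr7:30478785-30479034, minus strand): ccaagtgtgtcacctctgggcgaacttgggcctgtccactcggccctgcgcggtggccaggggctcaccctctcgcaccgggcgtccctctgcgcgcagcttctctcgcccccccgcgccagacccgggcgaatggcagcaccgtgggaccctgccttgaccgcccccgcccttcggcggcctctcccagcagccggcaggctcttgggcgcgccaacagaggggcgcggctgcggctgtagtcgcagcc

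The AIM2 window held 1 AP-1 match, the IL1B window 1 C/EBP match, the NLRP12 window 4 PU.1 matches and 1 C/EBP match, and the TLR2 window 1 NF-κB match. The NOD1 window held none of these letters. Over the 27 member promoters, PU.1 letters were found in 12, C/EBP letters in 8, AP-1 letters in 4, NF-κB letters in 3 (TLR2, TICAM1 and NLRP3) and the core receptor motif in 2 (TICAM1 and CARD9). Among all 35116 promoters of the same length, 23.6% held the PU.1 letters, 9.05% the C/EBP letters, 6.57% the AP-1 letters, 1.45% the NF-κB letters and 12.1% the core receptor motif. Direct repeats of that motif were in no member promoter and were rare, with 6 promoters for a spacing of 1 base and 1 promoter each for spacings of 2 and 5 bases. The TTGCGCAA palindrome was in no member promoter and in 0.131% of all promoters. A match is a description of these letters and not of a bound site.

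In untreated cells, levels per length (normalized counts per kb of exon, from the GENCODE 29 annotation of GRCh38) spanned a wide range. The kinase IRAK1 stood highest at 1257 ± 120.3 (SD, n = 4) per kb, ahead of the inflammasome adaptor PYCARD at 767 ± 158 per kb. TLR2, the receptor for bacterial lipoproteins, followed at 445 ± 33.7 per kb and was the most abundant receptor of the set, and MYD88, the adaptor shared by most TLRs, stood at 363 ± 22.7 per kb. IRAK3, an IRAK family member that restrains TLR signalling, and IL1RN, which encodes the interleukin-1 receptor antagonist, were next at 292 ± 36.1 and 289 ± 16.8 per kb, a difference smaller than their spread. Caspase-1 (CASP1) was at 228 ± 18.5 per kb, the inflammasome sensor NLRP3 at 149 ± 6.23 per kb and IL1B at 142 ± 16.5 per kb, the last pair again within their spread. TLR4, the lipopolysaccharide receptor, stood at 51.2 ± 4.6 per kb and its coreceptor CD14 at 49.3 ± 5.65 per kb. AIM2 (3.33 ± 0.581 per kb), NLRC4 (1.9 ± 0.579 per kb) and TLR5 (0.146 ± 0.132 per kb) were at the bottom of the tested members. After the combinations, IL1B was at 617 per kb with ATRA and above all members except IRAK1, as the plot of levels per length shows.

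**Figure D1:**
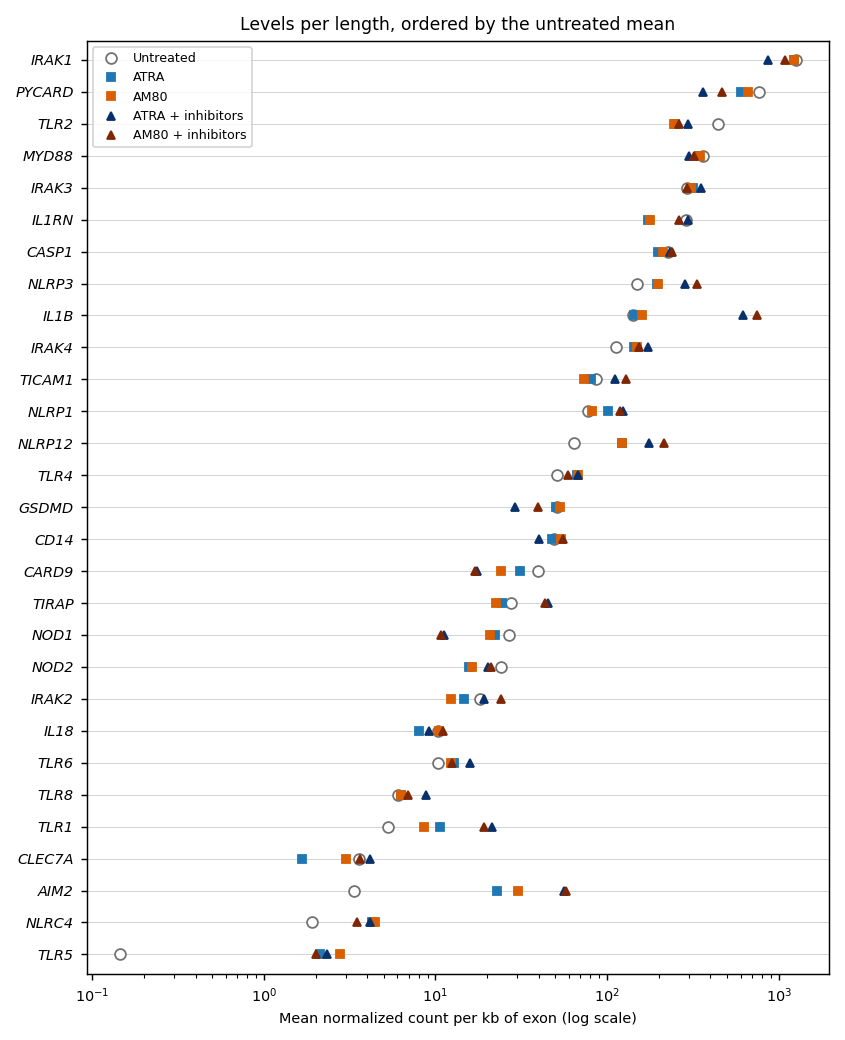
Mean normalized count per kb of exon (log scale) of the 29 tested members in the 5 groups, ordered by the untreated mean (open circles, n = 4; other symbols, n = 3 each). IRAK1 is at the top at 1257 per kb and TLR5 at the bottom at 0.146 per kb in untreated cells, and AIM2, IL1B and TLR5 show the widest spread between groups.

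The other 9 members fell below the filter and were not tested. TLR9, the endosomal receptor for CpG DNA, had 0 reads in all 16 libraries, which allows up to 3 reads per library. TLR3 and TLR7, endosomal sensors of double-stranded and single-stranded RNA, had at most 4 reads in any library. TLR10 had at most 3 reads, the lectins CLEC4A and CLEC4E at most 4 and 1, and CLEC5A at most 5. LY96, which encodes the MD-2 partner of TLR4, was detected in every library but with at most 8 reads. Its highest counts lay in the ATRA combination (6.83, 3.26 and 9.09 normalized counts), against 1.11 to 2.49 in untreated cells. TICAM2, an adaptor of TLR4, had at most 10 reads, and 93.4% of its exon bases are shared with other genes. Overlaps also cover 86.3% of TLR9 and 78.6% of CLEC4A, and the part of shared reads in their low values was not tested.

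Each retinoid alone was compared with untreated cells to ask how the set responds to receptor activation, and each combination with its retinoid to ask what the inhibitors add. A gene was called when its Benjamini-Hochberg adjusted p from limma was under 0.05 and its change exceeded 1.5-fold (0.58 on the log2 scale). With ATRA, 5 of the 29 members rose and 4 fell, against 6.52% higher and 2.94% lower over all 14643 genes tested. With AM80, 5 rose and 3 fell, against 6.41% and 3.76% of all genes. AIM2, TLR5, TLR1, NLRP12 and NLRC4 rose with both retinoids, and TLR2 and IL1RN fell with both. NOD2 and CLEC7A fell past the limit with ATRA, and CARD9 with AM80. In untreated cells TLR5, NLRC4 and AIM2 averaged 1.13, 6.89 and 6.69 normalized counts, under the filter of 10. They passed the filter through their treated libraries, so against untreated cells they could hardly enter these counts except as rises. The same filter was used for all genes. The median change over the 29 members was -0.03 with ATRA and 0.04 with AM80 on the log2 scale, beside -0.02 and -0.01 over all genes. The medians against untreated cells here and below are the same with TLR5 set at its lower bound.

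Adding the inhibitors to ATRA raised 6 members and lowered 4, against 8.15% and 11.4% of all genes. Adding them to AM80 raised 8 and lowered 1, against 6.81% and 8.9%. IL1B, AIM2, TLR1 and TIRAP rose on both backgrounds, and NOD1 fell on both. The median change of the members was 0.27 on ATRA and 0.10 on AM80, with all genes at -0.02 and -0.01. Against untreated cells, the ATRA combination raised 11 members and lowered 5 (14.2% and 14.8% of all genes), and the AM80 combination raised 10 and lowered 4 (12.9% and 13.1% of all genes). Between these last comparisons 13 calls were shared, and the untreated libraries are common to both. The member medians were 0.27 and 0.19 there, with all genes at 0.00 in each. In all, 21 of the 29 members were called in at least 1 of the 6 comparisons, against 41% of the 14643 genes tested. The remaining 8, TLR4, TLR8, CD14, MYD88, IRAK1, IRAK3, CASP1 and IL18, changed by -0.53 to 0.51 on the log2 scale throughout.

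**Figure D2:**
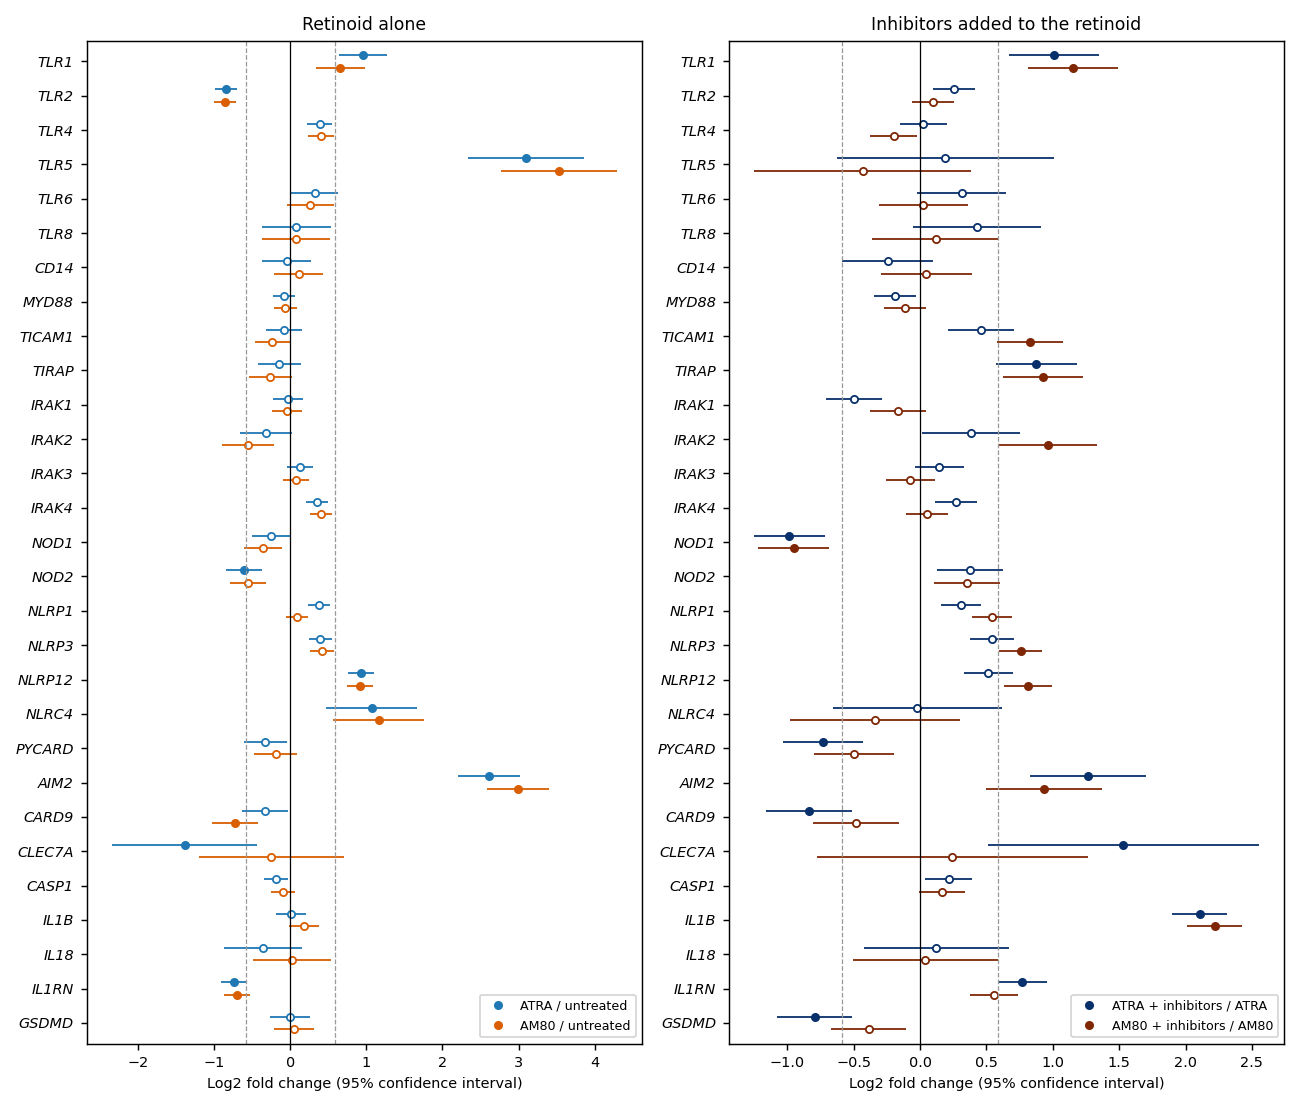
Log2 fold changes with 95% confidence intervals for the 29 tested members, left for each retinoid against untreated cells and right for each combination against its retinoid. Filled symbols passed both limits (dashed lines, 1.5-fold), open symbols did not; AIM2 and TLR5 lie farthest to the right on the left panel and IL1B on the right panel, with changes of 2.11 and 2.22. The fitted value of TLR5 depends on the pseudocount because its untreated libraries are near 0.

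Among the surface TLRs, TLR1, which pairs with TLR2 to recognize triacylated lipopeptides, rose at both steps. Its normalized counts were 23.7, 23.1, 26.2 and 23.3 in untreated cells, 47.2, 40.5 and 56.2 with ATRA and 43.6, 39.4 and 33.3 with AM80. They reached 98.6, 88.0 and 105 with the ATRA combination and 81.1, 85.2 and 94.0 with the AM80 combination. Untreated, retinoid and combination libraries formed 3 tiers that did not overlap. The log2 change was 0.96 ± 0.152 (SE) with ATRA (adjusted p = 5.97e-05) and 0.66 ± 0.152 with AM80 (adjusted p = 0.00229). Adding the inhibitors gave a further 1.01 ± 0.163 on ATRA (adjusted p = 4.12e-05) and 1.15 ± 0.163 on AM80 (adjusted p = 1.20e-05), for 4.04-fold and 3.61-fold higher means than in untreated cells. The call with AM80 alone ended without AM80 replicate 1, at 0.57, and with the GC trend removed, at 0.55, both just under the fold limit. Removing that trend also brought the change on adding the inhibitors to ATRA to 0.74, still past the limit.

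TLR2 (chr4:153684070-153705702, plus strand) fell with either retinoid. It stood at 2090.4, 2519, 2342 and 2339 normalized counts in untreated cells and at 1224 to 1371 in the 6 libraries with a retinoid alone. In the combinations it was at 1519 to 1572 (ATRA) and 1297 to 1493 (AM80), so every treated library lay below every untreated one. The log2 change was -0.84 ± 0.0706 with ATRA (adjusted p = 6.82e-09) and -0.86 ± 0.0706 with AM80 (adjusted p = 4.69e-09). Adding the inhibitors changed it by 0.25 on ATRA and 0.10 on AM80, neither past the fold limit. The ATRA combination remained 0.59 below untreated cells on the log2 scale, so close to the limit that the call ended, at -0.58 to -0.55, when any of 5 libraries was left out (untreated replicates 2, 3 and 4, ATRA combination replicates 1 and 2). The AM80 combination was 0.76 lower (change -0.76, adjusted p = 1.44e-08). With the GC trend removed, the ATRA combination was at -0.89 against untreated cells, beside -0.88 with ATRA alone. On AM80 these values were -0.96 and -0.97. TLR1 and TLR2, partners in one receptor complex, thus moved in opposite directions.

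TLR5, the flagellin receptor, was nearly absent from untreated cells, with at most 2 reads per library, and appeared in every treated group. Its normalized counts were 0, 0.924, 2.49 and 1.11 in untreated cells, 11.6, 12.9 and 25.2 with ATRA and 23.2, 17.6 and 23.9 with AM80. With the inhibitors they were 17.6, 20.6 and 15.9 on ATRA and 16.4, 13.7 and 16.7 on AM80, and no treated library overlapped the untreated ones. Against a floor of 3 reads per untreated library, TLR5 was at least 4.73-fold higher with ATRA (adjusted p = 1.22e-06) and at least 6.15-fold higher with AM80 (adjusted p = 1.83e-07). The combinations gave at least 5.15-fold and 4.46-fold. Adding the inhibitors to a retinoid changed TLR5 by 0.19 (95% confidence interval -0.63 to 1.01) on ATRA and by -0.43 (-1.25 to 0.39) on AM80, intervals too wide to exclude a change of 1.5-fold.

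TLR6, the other partner of TLR2, was called only with the ATRA combination against untreated cells. It had 47.6 to 73.5 normalized counts in untreated cells and 112, 90.2 and 86.4 with the ATRA combination, a log2 change of 0.63 ± 0.149 (adjusted p = 0.00107). The AM80 combination (71.5 to 77.2) gave 0.29 (adjusted p = 0.109). Leaving out untreated replicate 4 or ATRA combination replicate 1 brought the change to 0.52, under the limit. Scaling to total reads (0.49) and removing the GC trend (0.42) also ended the call. TLR1 and TLR6 share 57 exon bases and similar coding sequence, so some reads may have been counted for either. TLR4 was at 626 to 751 normalized counts in untreated cells and 814 to 975 with the retinoids alone, without overlap, but its changes of 0.39 (adjusted p = 0.001) and 0.40 (adjusted p = 0.000576) stayed under the fold limit. CD14 ran from 67.1 to 119 normalized counts over all libraries with no call. TLR8, an endosomal receptor for RNA and the single endosomal TLR above the filter, ran from 21.1 to 46.6 with no call.

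None of the 3 tested TIR adaptors was called with a retinoid alone. On adding the inhibitors TIRAP rose on both backgrounds and TICAM1 only on AM80. Over all genes, 8.15% rose at that step on ATRA and 6.81% on AM80. TIRAP, which brings MYD88 to TLR2 and TLR4, had 113, 98.8, 108 and 74.2 normalized counts in untreated cells and 75.9 to 91.5 in the 6 libraries with a retinoid alone. It then stood at 162, 155 and 169 with the ATRA combination and 156, 133 and 179 with the AM80 combination, above all other libraries. The inhibitors raised it by 0.88 ± 0.145 on ATRA (adjusted p = 5.4e-05) and by 0.93 ± 0.145 on AM80 (adjusted p = 3.63e-05). Against untreated cells TIRAP was 0.73 and 0.66 higher (adjusted p = 0.000104 and 0.000315), and the AM80 call ended without untreated replicate 4 (0.54) or AM80 combination replicate 3 (0.56). Scaling to total reads put these changes at 0.58 and 0.48 and ended both calls. Genes on the opposite strand cover 22.5% of its exon bases. TICAM1 (TRIF), the adaptor of TLR3 and TLR4, was at 164 to 215 normalized counts with AM80 and 319 to 378 with the AM80 combination, a rise of 0.83 ± 0.119 (adjusted p = 1.41e-05). On ATRA, from 209 to 229 up to 278 to 338, the change was 0.46 ± 0.119 (adjusted p = 0.0034), under the fold limit. Against untreated cells TICAM1 was called with the AM80 combination (0.59, adjusted p = 0.000142), a call that ended at 0.52 to 0.57 without untreated replicate 1 or 2 or AM80 combination replicate 1, and at 0.40 with scaling to total reads. With the GC trend removed, that change of TICAM1 against untreated cells was 0.80. MYD88 varied between 1127 and 1573 normalized counts with no call.

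Among the IRAK kinases, IRAK2 had 35.3, 49.2 and 44.8 normalized counts with AM80 and 85.5, 79.7 and 87.5 with the AM80 combination. That rise of 0.96 ± 0.177 (adjusted p = 0.000204) was a return to just above the untreated range of 54.4 to 73.9. On ATRA, from 41.5, 50.9 and 61.2 to 57.6, 78.3 and 64.8, the change was 0.39 ± 0.177 (adjusted p = 0.0769), and the difference between the backgrounds, 0.58 with a 95% confidence interval of 0.06 to 1.10, did not pass (adjusted p = 0.291). IRAK4, the kinase that starts the MYD88 complex, stood at 580.4 to 679 in untreated cells and 952 to 996 with the ATRA combination, a rise of 0.62 ± 0.0704 (adjusted p = 2.67e-07). The AM80 combination gave 0.45 ± 0.0704 for IRAK4, under the limit. The IRAK4 call ended with the GC trend removed (0.39), with scaling to total reads (0.47) and without untreated replicate 3 (0.58). IRAK1 (3192 to 5727 normalized counts) and IRAK3 (2399 to 3544) were not called.

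**Figure D3:**
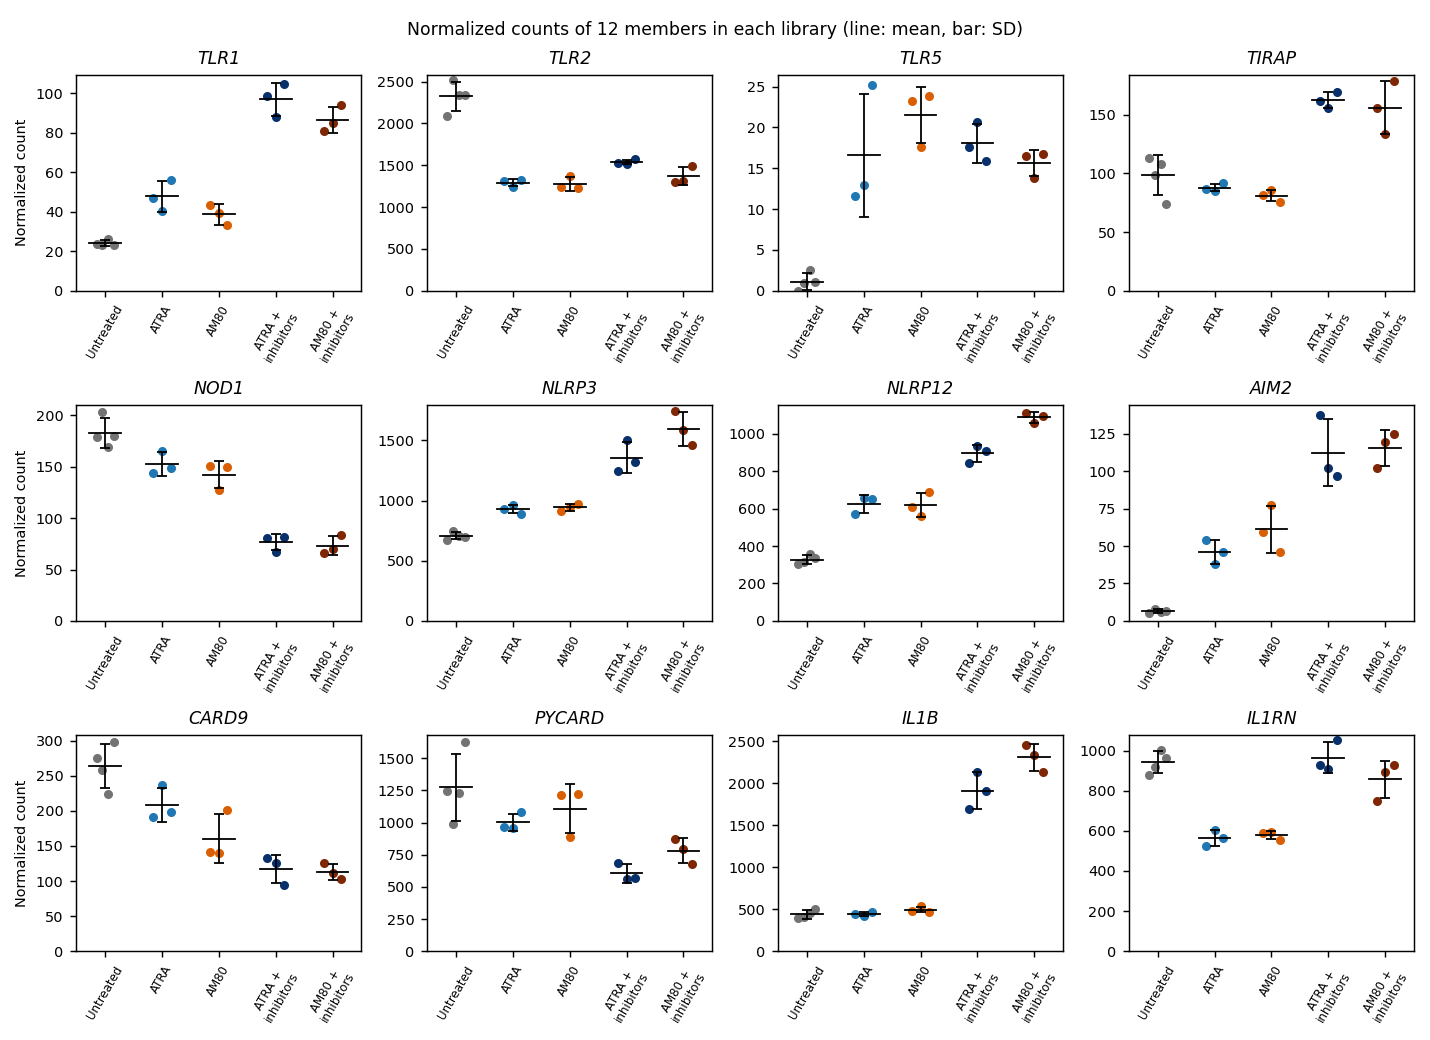
Normalized counts of 12 members in each of the 16 libraries, with the group mean (line) and SD (bar; n = 4 untreated, n = 3 otherwise). TLR1, NLRP12 and AIM2 step up at both stages, IL1B and TIRAP are higher only in the 6 libraries with inhibitors, TLR2 is lower in all treated libraries, and IL1RN is at 523 to 606 with a retinoid alone and back at 749 to 1051 with the inhibitors.

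The 3 NLRP genes rose in at least 1 comparison, most of all NLRP12, a receptor expressed in neutrophils and monocytes and described as a brake on NF-κB signalling. NLRP12 (chr19:53793603-53824394, minus strand) had 304, 314, 359 and 335 normalized counts in untreated cells, 569, 655 and 653 with ATRA and 608, 561 and 689 with AM80. It reached 841, 934 and 907 with the ATRA combination and 1108, 1056 and 1094 with the AM80 combination, and the 3 tiers did not overlap. The log2 change was 0.93 ± 0.0823 with ATRA (adjusted p = 1.6e-08) and 0.91 ± 0.0823 with AM80 (adjusted p = 2.08e-08). The inhibitors added 0.52 ± 0.088 on ATRA, under the fold limit (adjusted p = 7.72e-05), and 0.81 ± 0.088 on AM80 (adjusted p = 4.26e-07). Against untreated cells the combinations stood 2.73-fold and 3.31-fold higher.

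NLRP3 (chr1:247416156-247449108, plus strand), the sensor of the best known inflammasome, rose against untreated cells only with the combinations. It had 675, 746, 707 and 699 normalized counts in untreated cells, 933, 964 and 891 with ATRA and 912, 948 and 968 with AM80. The combinations brought 1246, 1502 and 1323 (ATRA) and 1743, 1589 and 1463 (AM80). Again the groups without retinoid, with a retinoid and with the inhibitors did not overlap. The retinoids alone gave 0.39 ± 0.0738 and 0.42 ± 0.0738, under the fold limit although the adjusted p was 0.000369 and 0.000188. The inhibitors raised NLRP3 by 0.76 ± 0.0789 on AM80 (adjusted p = 2.56e-07), and on ATRA gave 0.54 ± 0.0789 (adjusted p = 1.33e-05), again under the limit. Against untreated cells NLRP3 rose by 0.94 (adjusted p = 1.31e-09) and 1.17 (adjusted p = 3.54e-11) with the combinations, 1.92-fold and 2.26-fold in the means.

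NLRP1, a sensor of proteases and viral double-stranded RNA, was at 972 to 1009 normalized counts in untreated cells, 1574 to 1623 with the ATRA combination and 1491 to 1564 with the AM80 combination. It rose by 0.69 ± 0.0678 (adjusted p = 3.48e-08) and 0.63 ± 0.0678 (adjusted p = 1.25e-07). Scaling to total reads, which shifts the median of all genes by -0.15 and -0.18 in these comparisons, brought NLRP1 to 0.54 and 0.44 and ended both calls. NLRC4, which responds to flagellin and secretion system proteins through NAIP, was low, at 4.18, 9.24, 7.47 and 6.65 normalized counts in untreated cells. It had 20.2, 11.2 and 15.1 with ATRA and 16.7, 15 and 16.6 with AM80, with no overlap. The rises were 1.07 ± 0.287 (adjusted p = 0.00821) and 1.16 ± 0.287 (adjusted p = 0.00405), and adding the inhibitors gave no call. The ATRA combination (18.5, 13 and 13.6) was 1.05 above untreated cells (adjusted p = 0.0035), a call kept in every alternative that tested it. The AM80 combination had 15.3, 11 and 11.6. The call with ATRA alone was lost without ATRA replicate 1 (0.87, adjusted p = 0.0702) and with DESeq2 (adjusted p = 0.0531), and NLRC4 in the AM80 combination against untreated cells (0.82, adjusted p = 0.0203) was lost without untreated replicate 1 (0.63, adjusted p = 0.0667), without AM80 combination replicate 1 (0.68, adjusted p = 0.0912) and with edgeR or DESeq2 (adjusted p = 0.0577 and 0.158).

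NOD1 and NOD2, which sense fragments of bacterial peptidoglycan, did not move together. NOD1 (chr7:30424527-30478784, minus strand) had 178, 203, 169 and 179 normalized counts in untreated cells, 144, 166 and 148 with ATRA and 150.4, 127 and 149.7 with AM80. It was at 81.0, 67.4 and 81.8 with the ATRA combination and 65.8, 70.1 and 83.7 with the AM80 combination, below every other library. The inhibitors lowered NOD1 by 0.98 ± 0.128 on ATRA (log2 change -0.98, adjusted p = 3.48e-06) and by 0.95 ± 0.128 on AM80 (log2 change -0.95, adjusted p = 6.18e-06). Against untreated cells the changes were -1.24 and -1.31. NOD2 had 161 to 169.9 normalized counts in untreated cells and 106, 96.6 and 122 with ATRA, a fall of 0.61 on the log2 scale (adjusted p = 0.000316). With AM80 it had 101, 115 and 120.1, and the change of -0.55 (adjusted p = 0.000706) was under the fold limit. Without ATRA replicate 2, the ATRA change of NOD2 was -0.53 and also under it. The inhibitors gave 0.37 and 0.35 for NOD2, with no call.

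AIM2 (chr1:159062484-159147096, minus strand), the cytosolic sensor of double-stranded DNA, had the largest rise of the set that could be measured above the floor. Its normalized counts were 5.58, 8.31, 6.23 and 6.65 in untreated cells, 54.0, 38 and 46.1 with ATRA and 59.4, 77.7 and 46.3 with AM80. AIM2 reached 138, 102 and 96.6 with the ATRA combination and 102, 119.6 and 125 with the AM80 combination. The tiers of untreated, retinoid and combination libraries were apart. ATRA raised AIM2 6.88-fold in the means (log2 change 2.61 ± 0.197, adjusted p = 1.25e-09) and AM80 9.13-fold (2.99 ± 0.197, adjusted p = 1.32e-10). The inhibitors added 1.26 ± 0.21 on ATRA (adjusted p = 5.93e-05) and 0.93 ± 0.21 on AM80 (adjusted p = 0.00142). The combinations thus stood 16.8-fold and 17.3-fold above untreated cells, and over all alternatives run the log2 change lay between 3.31 and 4.04 and between 3.37 and 4.08.

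Among the lectin genes, CLEC7A (dectin-1, the receptor for fungal β-glucan) was low throughout. It had 16.7, 14.8, 11.2 and 17.7 normalized counts in untreated cells, 10.6, 0.863 and 9.36 with ATRA and 13.9, 14.5 and 9.4 with AM80. The fall of 1.39 ± 0.459 with ATRA (log2 change -1.39, adjusted p = 0.031) rested on replicate 2, a library with 1 read for this gene. Without it the change was -0.54 (adjusted p = 0.286), and neither edgeR (adjusted p = 0.0619) nor DESeq2 (adjusted p = 0.0908) made the call. Leaving out untreated replicate 1 or 4 also ended it (adjusted p = 0.0638 and 0.052). The rise of CLEC7A with the ATRA combination over ATRA, 1.53 ± 0.49 (adjusted p = 0.0138), was lost without the same library (0.68, adjusted p = 0.122) or without ATRA combination replicate 2 (1.28, adjusted p = 0.0722).

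CARD9, which carries signals from CLEC7A and related lectins to BCL10 and MALT1, stepped down. It had 275, 258, 224 and 298 normalized counts in untreated cells, 192, 236 and 198 with ATRA and 141, 139 and 201 with AM80. The combinations had 133, 125 and 94.3 on ATRA and 125, 111 and 103 on AM80. The fall with AM80 was 0.73 ± 0.145 on the log2 scale (change -0.73, adjusted p = 0.000598), beside -0.33 (adjusted p = 0.101) with ATRA. The ATRA combination was 0.83 lower than ATRA (change -0.83, adjusted p = 0.000178), and the AM80 combination changed by -0.48 (adjusted p = 0.0169), under the fold limit. Against untreated cells both combinations were lower, by -1.17 (adjusted p = 7.97e-07) and -1.21 (adjusted p = 5.12e-07).

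Of the inflammasome effectors, PYCARD and GSDMD fell in some comparisons and CASP1 was not called. PYCARD, the adaptor that links sensors to caspase-1, had 1245, 991, 1231 and 1626 normalized counts in untreated cells, 967, 958 and 1078 with ATRA and 1215, 887 and 1224 with AM80. PYCARD counts in the combinations were 687, 559.7 and 566 on ATRA and 872, 793 and 678 on AM80, below every other library. It fell by 0.73 ± 0.145 when the inhibitors were added to ATRA (change -0.73, adjusted p = 0.000347) and changed by -0.50 ± 0.145 on AM80 (adjusted p = 0.0099). Against untreated cells the changes were -1.06 (adjusted p = 1.3e-06) and -0.69 (adjusted p = 0.00022), the latter at -0.56 without untreated replicate 4 and then under the fold limit. GSDMD, gasdermin D, had 269, 245, 230.4 and 295 normalized counts in untreated cells, 238, 275 and 261 with ATRA and 162, 150.0 and 134 with the ATRA combination, a fall of 0.79 ± 0.135 (change -0.79, adjusted p = 7.34e-05), and the ATRA combination was likewise 0.80 below untreated cells (change -0.80, adjusted p = 1.72e-05). With AM80 it had 307, 203 and 302, against 209, 203 and 198 with the inhibitors, and the change of -0.39 (adjusted p = 0.0278) was under the limit. CASP1 stayed between 706 and 954 normalized counts in all 16 libraries with no call, and it shares sequence with CARD16. Antisense transcripts cover 59.7% of the exon bases of PYCARD.

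CARD9, GSDMD and PYCARD are among the most GC-rich members, at 65.8%, 64.8% and 61.7% GC against a median of 49.9% over the tested members and 48.2% over all tested genes. The libraries of the ATRA combination had the most negative GC slope, as given above. With a trend on GC content removed from each library, the change on adding the inhibitors to ATRA was -0.31 for CARD9 (adjusted p = 0.0492), -0.30 for GSDMD (adjusted p = 0.00602) and -0.33 for PYCARD (adjusted p = 0.015), none past the fold limit. Against untreated cells GSDMD was then at -0.32 with the ATRA combination and PYCARD at -0.51 with the AM80 combination, also under the limit. CARD9 at -0.65 and -0.92 and PYCARD at -0.70 with the ATRA combination kept their calls. NOD1, at 54.6% GC, kept its calls as well, with -0.80 on ATRA and -0.88 on AM80. Whether the GC slope or the treatment lies behind these falls was not tested.

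IL1B (chr2:112829751-112836903, minus strand), which encodes pro-interleukin-1β, was the member that answered most to the inhibitors. It had 392, 405, 459.6 and 503 normalized counts in untreated cells, 439.6, 415 and 471 with ATRA and 483, 534 and 472 with AM80, ranges that overlapped. In the combinations IL1B reached 1695, 2136 and 1904 on ATRA and 2457, 2343 and 2139.7 on AM80, each more than 3 times the highest library without them. The retinoids alone gave 0.01 (95% confidence interval -0.18 to 0.21) and 0.18 (-0.02 to 0.37), inside the fold limit. The inhibitors raised IL1B by 2.11 ± 0.0993 on ATRA (adjusted p = 3.17e-12) and by 2.22 ± 0.0993 on AM80 (adjusted p = 1.35e-12), 4.33-fold and 4.66-fold in the means. Over all alternatives these changes lay between 1.96 and 2.19 and between 2.09 and 2.27.

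IL1RN fell with the retinoids and was back near its untreated level with the inhibitors. It had 879.9, 916, 1005 and 963 normalized counts in untreated cells, 523, 606 and 566 with ATRA and 590.4, 592 and 554 with AM80. With GSK-LSD1 and MB3 it had 930.4, 909 and 1051 on ATRA and 749, 892 and 927 on AM80. The falls were 0.74 ± 0.0825 (change -0.74, adjusted p = 5.54e-07) and 0.70 ± 0.0825 (change -0.70, adjusted p = 1.15e-06). Adding the inhibitors raised IL1RN by 0.77 ± 0.0882 on ATRA (adjusted p = 7.75e-07), and on AM80 the change was 0.56 ± 0.0882 (adjusted p = 4.2e-05), just under the fold limit. Against untreated cells the combinations differed by 0.03 (-0.14 to 0.20) and -0.14 (-0.31 to 0.03). IL18 ran from 14.1 to 35.7 normalized counts and was not called.

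The reads of IL1B and its antagonist can be set against each other within a library. For every IL1RN read there were 0.467 ± 0.0376 (SD, n = 4) IL1B reads in untreated cells, 0.786 ± 0.0876 (n = 3) with ATRA and 0.857 ± 0.0425 (n = 3) with AM80. With the inhibitors the ratio was 1.99 ± 0.309 on ATRA and 2.74 ± 0.496 on AM80. IL1RN was lower across the first of these steps, and both genes were higher across the second, IL1B by more. No library of one tier reached the range of the next: 0.443 to 0.522 untreated, 0.685 to 0.902 with a retinoid and 1.81 to 3.28 with the inhibitors. This ratio was chosen after the values had been seen and is given as a description.

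AM80 was compared with ATRA directly, at the same concentration and time, to ask whether selective activation of RARA differs from activation of all receptors for these genes. No member was called without the inhibitors (0.0478% of all genes in either direction, 7 genes), with the inhibitors (0% of all genes) or in the interaction of retinoid and inhibitors (0% of all genes). By limma, 3, 12 and 6 of the 29 members had an unadjusted p under 0.05 in these comparisons, against 13.9%, 18.1% and 15.1% of all genes. The smallest adjusted p of a member was 0.0802, 0.149 and 0.278. With edgeR and with DESeq2 no member was called either, with 3, 12 and 5 members (edgeR) and 2, 11 and 5 members (DESeq2) at an unadjusted p under 0.05. Over all genes those shares were 16%, 16.6% and 16.2% with edgeR and, over 38002 genes that include those with few reads, 5.65%, 6.15% and 5.67% with DESeq2. The 95% confidence interval lay inside the 1.5-fold limit for 21 of 29 members without and 19 of 29 with the inhibitors, so differences of that size were outside the intervals for most members, and for the others they were not.

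The member nearest to a difference without the inhibitors was NLRP1, with 1279, 1405 and 1183 normalized counts for ATRA and 961, 1063 and 1137 for AM80 (-0.29, 95% confidence interval -0.44 to -0.14, adjusted p = 0.0802). For CARD9 the difference was -0.39 (-0.71 to -0.07, adjusted p = 0.25). CLEC7A had the largest difference and the opposite sign (1.14, 0.12 to 2.16, adjusted p = 0.298), with the ATRA library of 1 read in it. AIM2 differed by 0.39 (-0.05 to 0.82, adjusted p = 0.434), TLR2 by -0.02 (-0.18 to 0.14) and IL1RN by 0.04 (-0.15 to 0.22). With the inhibitors, GSDMD had the smallest p: 0.46 higher with AM80 (0.17 to 0.74, adjusted p = 0.149). IL1B was 0.28 higher with the AM80 combination (0.07 to 0.49, adjusted p = 0.18), NLRP12 also 0.28 (0.10 to 0.47, adjusted p = 0.155) and NLRP3 0.24 (0.07 to 0.40, adjusted p = 0.169). AIM2 (0.05, -0.38 to 0.49), NOD1 (-0.07, -0.34 to 0.20) and TIRAP (-0.07, -0.37 to 0.24) lay close to 0. GSDMD, IRAK1 and PYCARD, higher with the AM80 combination by 0.46, 0.32 and 0.37, are GC-rich. The GC slopes of the combinations did not overlap. The 12 members at an unadjusted p under 0.05 (limma) between the combinations went both ways. Higher with AM80 were GSDMD, NLRP12, IRAK1, NLRP3, IL1B, CD14 and PYCARD, at 45.7% to 64.8% GC. Lower were IRAK3 (means of 3511 with ATRA and 2914 with AM80), TLR4, TLR2, IRAK4 and TLR6, at 39.3% to 42.8% GC. AIM2, NOD1 and TIRAP, close to 0, have 41.7%, 54.6% and 52.4% GC. CARD9, the most GC-rich member, differed by -0.04 (-0.37 to 0.28). The part of the slope in these differences was not tested. On adding the inhibitors TICAM1, IRAK2, NLRP3 and NLRP12 were called on AM80 and not on ATRA, and IL1RN, CLEC7A, PYCARD, GSDMD and CARD9 on ATRA and not on AM80, but the interaction did not pass for any of them, with adjusted p between 0.278 and 0.584.

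**Figure D4:**
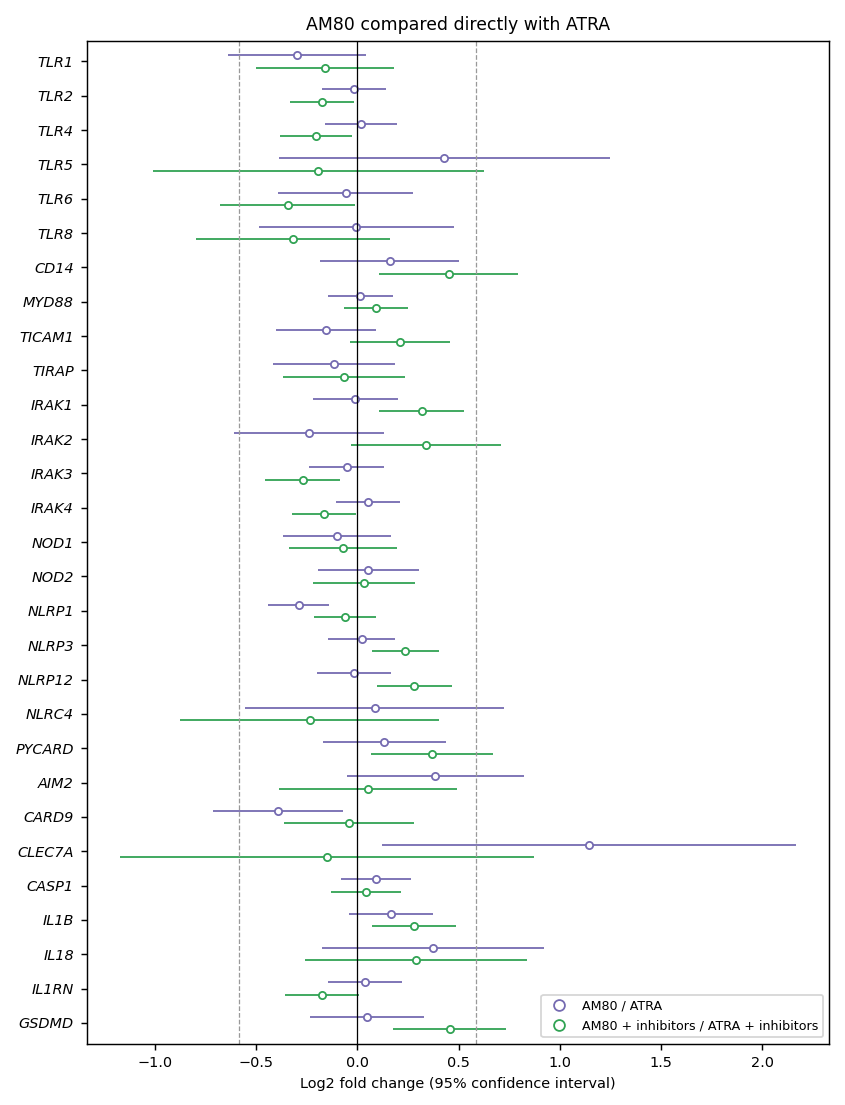
Log2 difference of AM80 minus ATRA with its 95% confidence interval for the 29 tested members, without (purple) and with (green) the inhibitors; dashed lines mark 1.5-fold. No member was called, most intervals lie inside the dashed lines, and the widest belong to CLEC7A and TLR5, which have few reads.

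Other genes of these pathways, taken from a list of 74 of which 57 were tested, were read beside the members. Their changes are from the main fit, and values with the GC trend removed are not given for them. With ATRA 8 of the 57 rose and 2 fell (6.52% and 2.94% of all genes), and with AM80 7 rose and 3 fell (6.41% and 3.76%). On adding the inhibitors 12 rose and 7 fell on ATRA (8.15% and 11.4% of all genes), and 8 rose and 6 fell on AM80 (6.81% and 8.9%). Against untreated cells 19 rose and 8 fell with the ATRA combination (14.2% and 14.8% of all genes), and 19 rose and 6 fell with the AM80 combination (12.9% and 13.1%). Of the 57, 34 were called in at least 1 of these comparisons, against 41% of all genes. The median change was 0.12, 0.13, 0.20, 0.17, 0.31 and 0.31 on the log2 scale in the same order.

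Among the cytosolic DNA sensing genes, STING1, the adaptor downstream of cGAS, rose by 1.82 with ATRA and 1.61 with AM80, from a mean of 2882 normalized counts to 10151 and 8793. Adding the inhibitors changed STING1 by -0.40 on ATRA and -0.13 on AM80, neither past the fold limit. CGAS, the enzyme that signals to STING1, rose by 0.63 with AM80 and changed by 0.52 with ATRA, under the fold limit. It rose by a further 1.17 and 1.30 when the inhibitors were added, from means of 1110.1 and 1199 to 2516 and 2953 normalized counts. The RNA sensors IFIH1 and DHX58 fell at that step, IFIH1 by -0.89 and -1.25 and DHX58 by -1.44 and -1.06. From the same list, RIGI (-0.23 and -0.27), MAVS (-0.10 and -0.03) and the nucleic acid sensor IFI16 (0.54 and 0.18) were not called there. TREM1, an activating receptor that amplifies TLR signals, rose at both steps, from a mean of 125 normalized counts to 231 and 256 with the retinoids and to 516 and 552 with the combinations. CD180, a TLR-like receptor, rose by 1.17 and 1.12 with the retinoids and was not called when the inhibitors were added. Of 20 tested genes of shared signalling, 2 rose and 3 fell on adding the inhibitors to ATRA (8.15% and 11.4% of all genes). On AM80, 1 rose and 3 fell (6.81% and 8.9% of all genes). TAB1 (-0.80 and -0.60) and IKBKE (-0.83 and -0.67) fell on both backgrounds.

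BCL10 and MALT1, the partners of CARD9, were higher with the inhibitors: BCL10 rose by 0.86 and 0.75 and MALT1 by 1.30 and 1.16 on adding the inhibitors. Among the inflammasome partners, CASP4, the sensor of intracellular lipopolysaccharide, rose by 0.92 and 0.79 at that step, and NEK7, the NLRP3 cofactor, rose by 0.75 on ATRA and changed by 0.41 on AM80, under the limit. IL1RAP, the accessory chain of the interleukin-1 receptor, rose from a mean of 519 to 957 normalized counts on AM80 (0.89) and was also called on ATRA. IL1R1, its signalling chain, fell by -1.24 and -0.81 with the retinoids and rose by 1.30 and 0.63 with the inhibitors, the same order as IL1RN. NLRX1, a mitochondrial NOD-like receptor, fell by -1.08 and -0.79 on adding the inhibitors. NAIP, the partner of NLRC4, was 0.84 and 1.05 lower than in untreated cells with the combinations (changes of -0.84 and -1.05), while NLRC4 itself was higher.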

How the data were processed

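RNA-seq was measured in 16 libraries of OCI-AML3 cells, grouped by the treatment in the sample labels (untreated n = 4, other groups n = 3). The submitters' processing notes name FastQC, cutadapt, STAR, featureCounts and DESeq2. The authors deposited DESeq2-normalized counts, signal values in which the reads of a library are divided by its size factor, and 100% of the values came out as whole reads within 0.001 after multiplying back. Which genome build and annotation release were used, and whether counting used strand, is not given in the sources used here, so gene positions, exon lengths and overlaps were taken by gene identifier from GENCODE 29 (GRCh38), and antisense or overlapping genes could not be told apart from the members they cover. RNA kits differ between the labels and the study's methods. Depth was 11963898 to 33789718 reads per library, floors were set at 3 reads, and floors and intervals cover counting error or the spread between libraries only.

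Values were analysed on the log2 scale after adding a pseudocount of 1, for the 14643 genes averaging 10 or more. The pseudocount draws fold changes of low genes toward 0 in general. CLEC7A with ATRA, where 1 library had 1 read, went the other way: -1.39, beside -1.11 with edgeR and -1.12 with DESeq2. One limma model (R 4.3.3, limma 3.58.1, mean-variance trend) with a coefficient per group gave 9 comparisons, with Benjamini-Hochberg adjustment over all genes in each. Calls needed an adjusted p under 0.05 and more than 1.5-fold. Alternatives used edgeR 4.0.16 and DESeq2 1.42.0 on recovered reads, other pseudocounts, filters and scalings, a replicate block, and each library left out. Removal of a GC trend was chosen after seeing the data. Promoters were searched and figures drawn in Python 3.11.15. The fits were tested on simulated data. The simulated counts had the same dispersion (spread beyond counting error) for every gene and no GC slope. That test therefore says nothing of calls affected by the GC slope or by an outlying library. The members, lists and motifs were chosen with earlier results of these data known. All 38 members are accounted for by role: those called in at least 1 of 6 comparisons with the values behind their calls, the others by range or reads. Some lineage markers are not reported here.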

Additional observations from a re-analysis of the deposited data

How the results depend on the processing

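The 66 calls of members in the 6 comparisons with untreated cells or with the retinoid alone were recomputed under 29 alternative settings, except that the filter at a mean of 50 normalized counts tested only 56 of them and left out those of TLR5, NLRC4 and CLEC7A. None changed direction, and 27 calls were kept in every setting that tested them, among them all calls of TLR5 and those of IL1B. Leaving out 1 library at a time ended 0 to 5 calls, most without untreated replicate 4, and 12 calls were lost for at least 1 library. The number of members called over these 16 fits ranged from 7 to 9 (ATRA against untreated), 7 to 10 (AM80 against untreated), 9 to 11 (ATRA combination against ATRA), 9 to 10 (AM80 combination against AM80), 14 to 16 and 12 to 14 (ATRA and AM80 combination against untreated), and was 0 in each comparison of the retinoids. With a limit of 0.01 on the adjusted p and of 2-fold, 3 members were called with ATRA and 3 with AM80 against untreated, 3 and 2 on adding the inhibitors, and 9 and 8 for the combinations against untreated. Without a fold limit, 14 were called with AM80 against untreated, 20 with the ATRA combination against ATRA and 15 with the AM80 combination against AM80. Shares of all genes called under these other limits are not given here, so these counts do not set the members apart. At an unadjusted p under 0.05 (limma), 5713, 8070 and 6959 of the 14643 genes passed in these last comparisons, in the same order. Of the 29 members, 15, 21 and 16 did. Scaling to total reads and removal of the GC trend each ended 8 calls. Scaling to total reads lowered the median of all genes by 0.15 and 0.12 (log2, changes of -0.15 and -0.12) on adding the inhibitors, and the cause was not tested. Quantile normalization ended 3 calls, all against untreated cells. These were NLRC4 with ATRA (0.73, limma adjusted p = 0.0564), IRAK4 with the ATRA combination (0.57) and NLRP1 with the AM80 combination (0.50). With the replicate number as a block, 4 calls ended: TLR2 (-0.58) and TLR6 (0.52) with the ATRA combination, and TIRAP (0.54) and PYCARD (-0.56) with the AM80 combination, all against untreated. That block leaves untreated replicate 4 without a partner. The numbers did not pair the samples: 4 of 30 same-numbered pairs correlated above 0.1 (range -0.11 to 0.19), and 10 of 30 correlated best with their own number. Depth limits TLR5, NLRC4 and CLEC7A, which have few reads.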
